A study of Mus musculus with 24 samples.

Results

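Interferon-stimulated genes are the genes that cells switch on when an interferon reaches its receptor. The set described here was given as a list of 45 mouse genes, each measured by the probe set annotated to it alone, or by the brightest of these over the 24 arrays where there were several. In all, 43 of the 45 genes were measured, among 18193 genes on the array. Isg15 and Ifi44 were on the list too and are not analysed here. Of the 43 genes, 24 had 1 such probe set and 19 had several. No value of the arrays decided which genes were on the list, but the list was drawn up with earlier results of these data known.

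Lung tumours of mice with a mutant EGFR, the epidermal growth factor receptor, were compared with normal mouse lung. L858R is a mutation that activates the receptor's kinase, and T790M is known for making that kinase resist inhibitor drugs. There were 4 L858R tumours, 5 tumours with both mutations (L858R+T790M) and 5 T790M tumours, and there were 5 mixed-strain and 5 FVB normal lungs. The tumours were nodules visible to the eye, cut out of bitransgenic animals that the labels write as C/L858R, C/L+T and C/T790M, without spelling out C. Those animals ate a doxycycline diet for 3 to 6 months. The normal lungs came from littermates, also on doxycycline, that carried no transgene or only 1 of the pair needed. L858R tumours and 1 set of normals had the strain FVB mixed, and the L858R+T790M and T790M tumours and the other normals had the strain FVB, so each tumour group was set against normals of its own strain. Both FVB tumour groups were set against the same 5 FVB normals. The labels do not say that each array is a separate mouse, so the spread behind each p-value is that between these arrays, which may in part be technical.

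Total RNA of flash-frozen tissue was hybridised to Affymetrix MOE 430 2.0 arrays, and the deposited values are log2 signals, on which a difference of 1 is a 2-fold change. Array medians ran from 7.21 to 7.34, and values over all probe sets ran from 3.08 to 14.9. Levels of different genes come from different probe sets and are not compared with one another. Array values are given in the order of the replicate numbers. The arrays carried lung markers: the mean of 5 alveolar type 2 cell markers was 13.93 to 14.45 in tumours and 13.69 to 13.88 in normal lungs. The mean of 5 endothelial markers and that of 4 ciliated and club cell markers were lower in every tumour than in every normal lung of its strain, although Foxj1, a ciliated cell marker, was 8.03 in T790M replicate 1, against 7.73 in FVB normal 2. In such bulk tissue, fewer cells of a type and less RNA per cell cannot be told apart.

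Type I interferons are made by cells that sense viral or misplaced nucleic acid, and interferon gamma is made mainly by T cells and natural killer (NK) cells. Through their receptors and the JAK kinases they switch on STAT transcription factors. The complex ISGF3, which contains STAT2 and IRF9, binds the interferon-stimulated response element, and the gamma-activated site is the element through which interferon gamma acts. The induced genes include nucleic acid sensors, antiviral effectors, GTPases that act on intracellular microbes, and the machinery that loads peptides on MHC class I. In lung tumours these genes can be expressed by the tumour cells and by the immune and stromal cells among them.

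The stretches below lie before the RefSeq transcript start of 6 of the genes whose array values follow, and are shown because they hold the letters GAAANNGAAA, the core of the interferon-stimulated response element. Each is 160 bases long, ends at the base before the start and is written 5′ to 3′ along the gene's strand (RefSeq, build GRCm38.p6), with matches on either strand in capitals.
Ifit1: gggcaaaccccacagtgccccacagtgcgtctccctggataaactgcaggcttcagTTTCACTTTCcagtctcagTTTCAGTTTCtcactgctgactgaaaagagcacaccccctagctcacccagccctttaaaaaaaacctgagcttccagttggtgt
Ifit3: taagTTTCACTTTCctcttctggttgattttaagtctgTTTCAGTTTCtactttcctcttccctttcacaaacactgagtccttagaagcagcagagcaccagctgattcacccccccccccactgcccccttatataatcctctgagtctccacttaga
Rsad2: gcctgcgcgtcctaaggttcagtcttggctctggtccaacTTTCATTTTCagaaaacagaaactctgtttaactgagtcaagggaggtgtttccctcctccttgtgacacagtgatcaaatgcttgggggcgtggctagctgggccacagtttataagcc
Bst2: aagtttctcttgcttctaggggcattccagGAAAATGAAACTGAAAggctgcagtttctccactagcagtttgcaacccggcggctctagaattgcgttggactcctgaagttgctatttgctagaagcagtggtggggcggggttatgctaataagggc
Gbp2: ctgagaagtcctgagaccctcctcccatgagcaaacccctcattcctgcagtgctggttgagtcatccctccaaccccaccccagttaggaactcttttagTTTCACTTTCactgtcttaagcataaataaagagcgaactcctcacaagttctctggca
Igtp: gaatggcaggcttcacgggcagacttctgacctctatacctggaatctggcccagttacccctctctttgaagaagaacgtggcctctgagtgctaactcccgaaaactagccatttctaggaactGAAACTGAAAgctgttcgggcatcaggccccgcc

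These stretches are chr19:34640729-34640888 on the plus strand for Ifit1, chr19:34583369-34583528 on the plus strand for Ifit3, chr12:26456453-26456612 on the minus strand for Rsad2, chr8:71537473-71537632 on the minus strand for Bst2, chr3:142620503-142620662 on the plus strand for Gbp2 and chr11:58199396-58199555 on the plus strand for Igtp. The matches began 104 and 85 bases before the start of Ifit1, 156 and 122 before Ifit3, 120 before Rsad2, 130 and 124 before Bst2, 59 before Gbp2 and 34 before Igtp. Those of Bst2 overlap each other.

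Promoter entries were found for 32 of the 43 genes. Within the 250 bases before the start, GAAANNGAAA on either strand was present in 11 of the 32 (34.4%), against 453 of the 14452 tested genes with an entry (3.13%) and 936 of 27025 RefSeq genes (3.46%). The 11 genes were Ifit1, Ifit3, Rsad2, Bst2, Gbp2, Gbp3, Igtp, Irgm1, Oas3, Stat2 and Trim30a. The letters TTCNNNGAA, the gamma-activated site, which read the same on both strands, were present in 8 of the 32 (25%), against 1073 of 14452 tested genes (7.42%) and 2197 of 27025 RefSeq genes (8.13%). Those 8 were Irf1, Ifit2, Igtp, Bst2, Psmb8, Eif2ak2, Isg20 and Samhd1, so Igtp and Bst2 held both. In Bst2 the gamma-activated site overlaps the response element, and in Igtp it does not. A match describes letters, not a bound site, and the absence of one says only that these letters are not in this window.

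Tumours of the L858R+T790M and T790M groups differed widely among themselves in the mean of these genes, and the 4 L858R tumours did not. The mean over the 43 genes was 8.99, 8.58, 8.59 and 8.67 in L858R tumours, against 9.03, 9.43, 9.46, 9.68 and 9.30 in mixed-strain normals. It was 9.81, 8.31, 8.81, 8.94 and 11.11 in L858R+T790M tumours and 10.17, 8.40, 8.91, 8.68 and 9.08 in T790M tumours, against 9.13, 9.21, 9.43, 9.17 and 9.35 in FVB normals. Of the 14 tumours, 3 lay above all normals of their strain (L858R+T790M replicates 1 and 5 and T790M replicate 1), and the other 11 lay below all of them. Group means were 8.71 ± 0.19 in L858R tumours (SD, n = 4), 9.39 ± 1.10 in L858R+T790M tumours and 9.05 ± 0.68 in T790M tumours, against 9.38 ± 0.24 in mixed-strain normals and 9.26 ± 0.12 in FVB normals (n = 5 each).

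**Figure D1:**
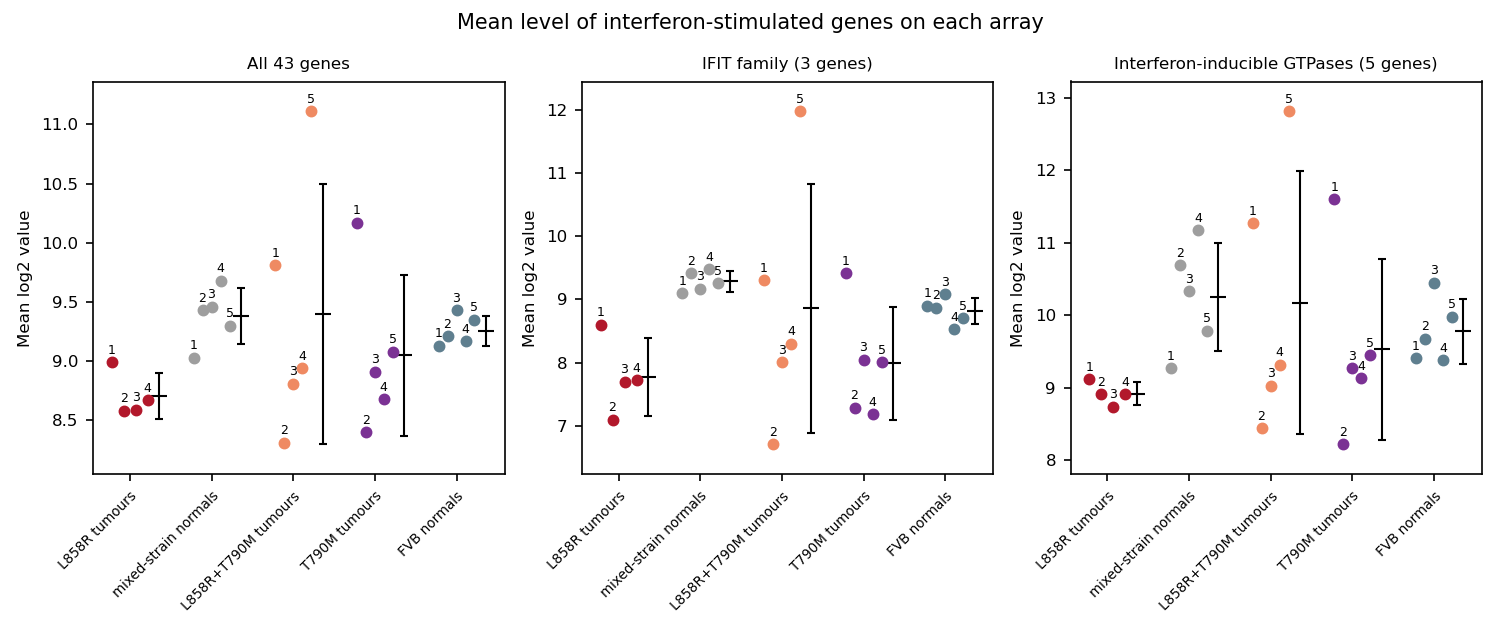
Mean log2 signal by array over all 43 interferon-stimulated genes, the 3 IFIT genes and the 5 interferon-inducible GTPases, with 1 numbered point for each replicate, each tumour group left of its normals, and bars for the group mean ± SD. L858R+T790M replicate 5 reaches 11.11 over all 43 genes, and L858R+T790M replicate 1 and T790M replicate 1 are the other tumours above the normals.

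The highest of all 24 arrays was L858R+T790M replicate 5 for 39 of the 43 genes. It was above every normal lung for 42 genes (27.2% of all genes), Ifitm3 being the exception, and at least 2-fold above the FVB normal mean for 34 genes, against 4.13% of all genes. T790M replicate 1 was above every normal lung for 33 genes (26.2% of all genes) and at least 2-fold above the FVB mean for 19, against 2.81% of all genes. L858R+T790M replicate 1 was above every normal lung for 22 genes (32.9% of all genes) and at least 2-fold above the FVB mean for 9, against 4.48% of all genes. The median difference of the 43 genes from the FVB normal mean was 1.57 in L858R+T790M replicate 5, 0.78 in T790M replicate 1 and 0.46 in L858R+T790M replicate 1. In each of the other tumours the median difference from the normals of the same strain lay between -0.73 and -0.20, and at most 1 gene was 2-fold above. The median over all genes lay between -0.03 and 0.06 in every tumour. The Gapdh signal of 3′ probes less that of 5′ probes, a sign of RNA quality, was -0.11, -0.18 and -0.03 in these high tumours in the same order. Over the other arrays it ran from -0.31 in mixed-strain normal 5 to -0.07 in L858R replicate 1. L858R+T790M replicate 1 thus had the highest value of all 24 arrays.

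**Figure D2:**
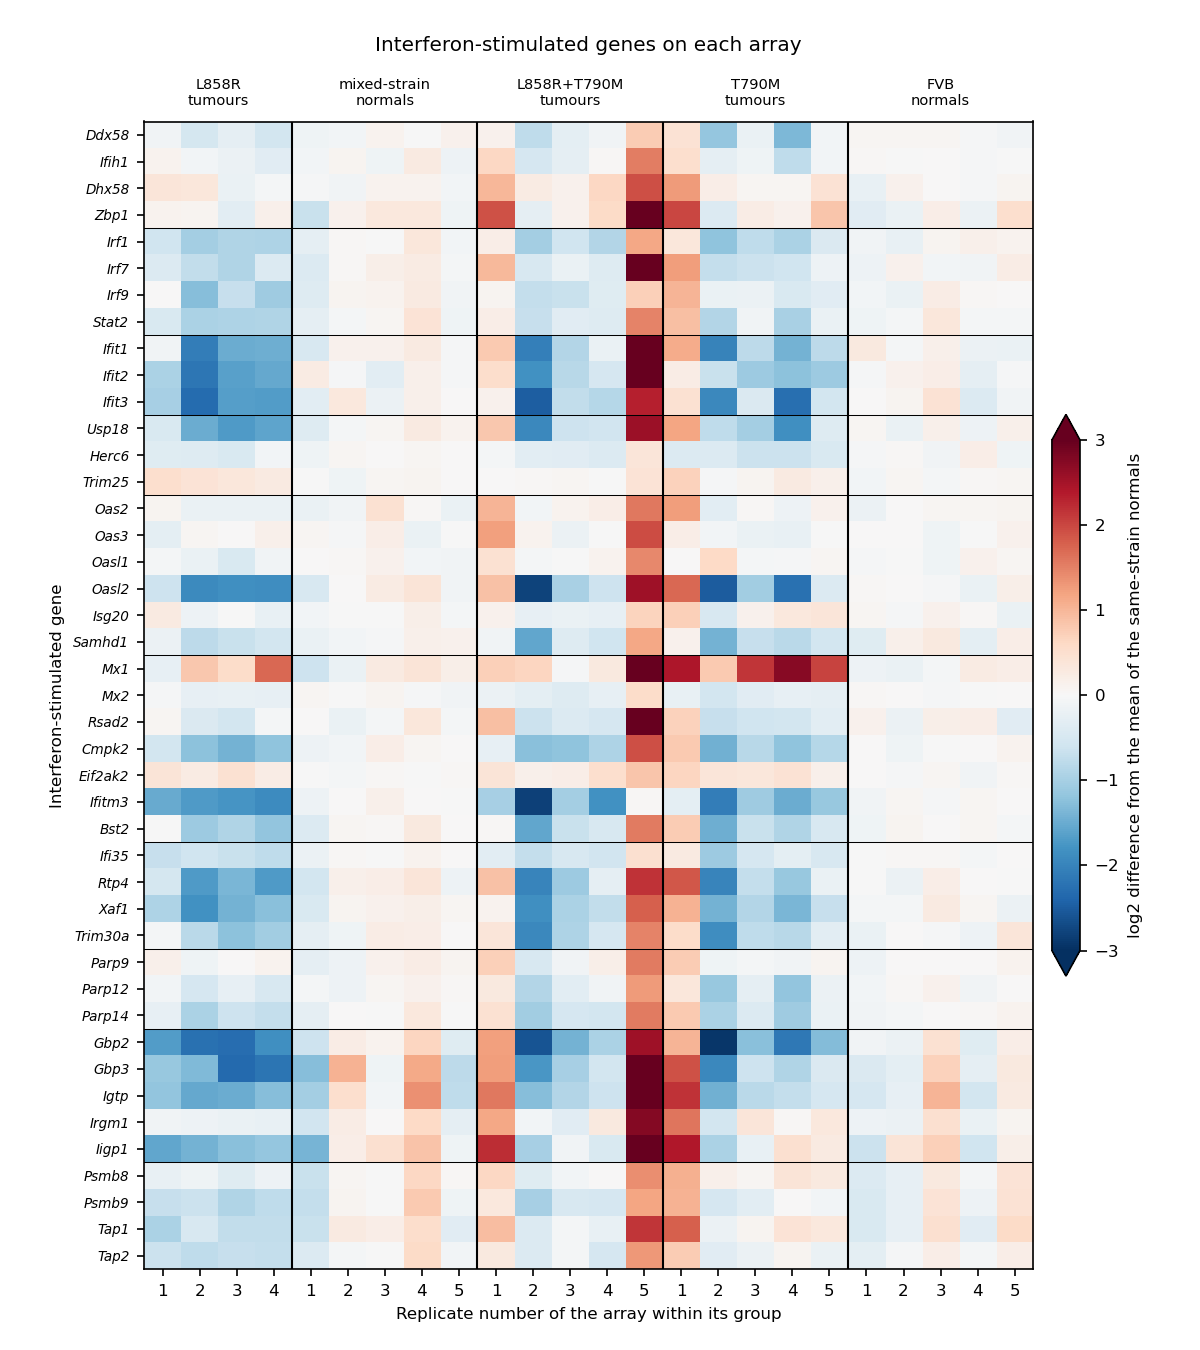
Heat map of the 43 genes (rows, grouped by role) over the 24 arrays (columns, each tumour group left of its normals), coloured by the log2 difference from the mean of the same-strain normals. L858R+T790M replicates 1 and 5 and T790M replicate 1 stand out as columns above the normals, and most other tumour columns are below them.

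The same arrays were highest for most of the genes in the FVB-strain tumour groups. Within its 5 arrays, L858R+T790M replicate 5 was the highest for all 43 genes, and replicate 1 came next for 41 of them. T790M replicate 1 was the highest of its 5 arrays for 40 genes, and L858R replicate 1 was the highest of its 4 for 32. The median SD of the 43 genes among arrays of a group was 0.22 in L858R, 1.03 in L858R+T790M and 0.66 in T790M tumours, against 0.25 in mixed-strain and 0.16 in FVB normals. Over all genes it was 0.18, 0.16 and 0.19 in the 3 tumour groups in the same order, against 0.11 in mixed-strain and 0.10 in FVB normals.

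In L858R tumours, 9 of the 43 genes were lower and 2 were higher than in mixed-strain normals by limma's test at an adjusted p under 0.05. Over all genes 18.1% were called lower and 23.3% higher, 41.4% in all. The genes that fell were Irf1, Irf9, Ifit3, Herc6, Ifitm3, Ifi35, Xaf1, Gbp2 and Tap2, and those that rose were Trim25 and Eif2ak2. The median difference of the 43 genes was -0.68, against 0.05 over all genes, and 37 of the 43 differences were below 0. All 4 L858R tumours lay below all 5 mixed-strain normals for 13 genes (16.0% of all genes) and above them for 2 (19.8%). Ifitm3, Ifi35 and Trim25 kept their calls without any 1 of the 24 arrays. The count of genes called lower was 2 without L858R replicate 2 or 3 or without mixed-strain normal 2, 3 or 4, 3 without L858R replicate 4 or mixed-strain normal 5, and 15 without L858R+T790M replicate 5, which enters the shared estimate of spread. With a fit to only the 2 groups compared it was 28, against 18.7% of all genes called lower in that fit. That fit called 19 of the genes that the fit to all 24 arrays did not. Each SE and p given below for L858R tumours draws on the spread within all 5 groups. The median SD of the 43 genes was 1.03 in L858R+T790M tumours, against 0.22 in L858R tumours and 0.25 in mixed-strain normals.

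In L858R+T790M tumours, Dhx58 and Eif2ak2 were higher and Ifitm3 was lower than in FVB normals. The other 40 genes were not called, with 36.2% of all genes called in either direction (20.2% higher and 16.1% lower). The median difference was 0.06, against 0.03 over all genes. The 5 tumours lay above all FVB normals for 1 gene, Eif2ak2 (16.7% of all genes), and below all of them for 0 (13.0%), while 5 genes passed an unadjusted p under 0.05. Replicate 5 lay above all FVB normals for 42 genes and replicate 1 for 29, against 33.2% and 39.2% of all genes. Replicates 2, 3 and 4 lay below all of them for 32, 30 and 27 genes, against 31.1%, 28.1% and 30.9% of all genes. Without replicates 1 and 5, 12 genes were called lower (15.3% of all genes in that fit) and 1 was called higher, and the median difference was -0.52. Those 2 arrays were left out because their interferon values were already known to be high, so these counts only describe the other 3 tumours.

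In T790M tumours, Mx1 and Eif2ak2 were higher and Ifitm3, Herc6 and Mx2 were lower than in FVB normals, with 39.8% of all genes called (21.9% higher and 17.9% lower). The median difference was -0.29, against 0.00 over all genes. The tumours lay above all FVB normals for 2 of the genes (17.0% of all genes) and below all of them for 3 (12.8%). Without T790M replicate 1, 9 of the 43 genes were called lower, and without L858R+T790M replicate 5, 6 were. In the fit to all 24 arrays, 17.9% of all genes were called lower. That share can differ in the fits without an array, so these counts are not set against it. T790M replicate 1 was the highest of its group for 40 of the 43 genes, so the count without it only describes the other T790M tumours. The FVB normals also served the comparison with L858R+T790M tumours, so the counts of both rest on the same 5 normal arrays.

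**Figure D3:**
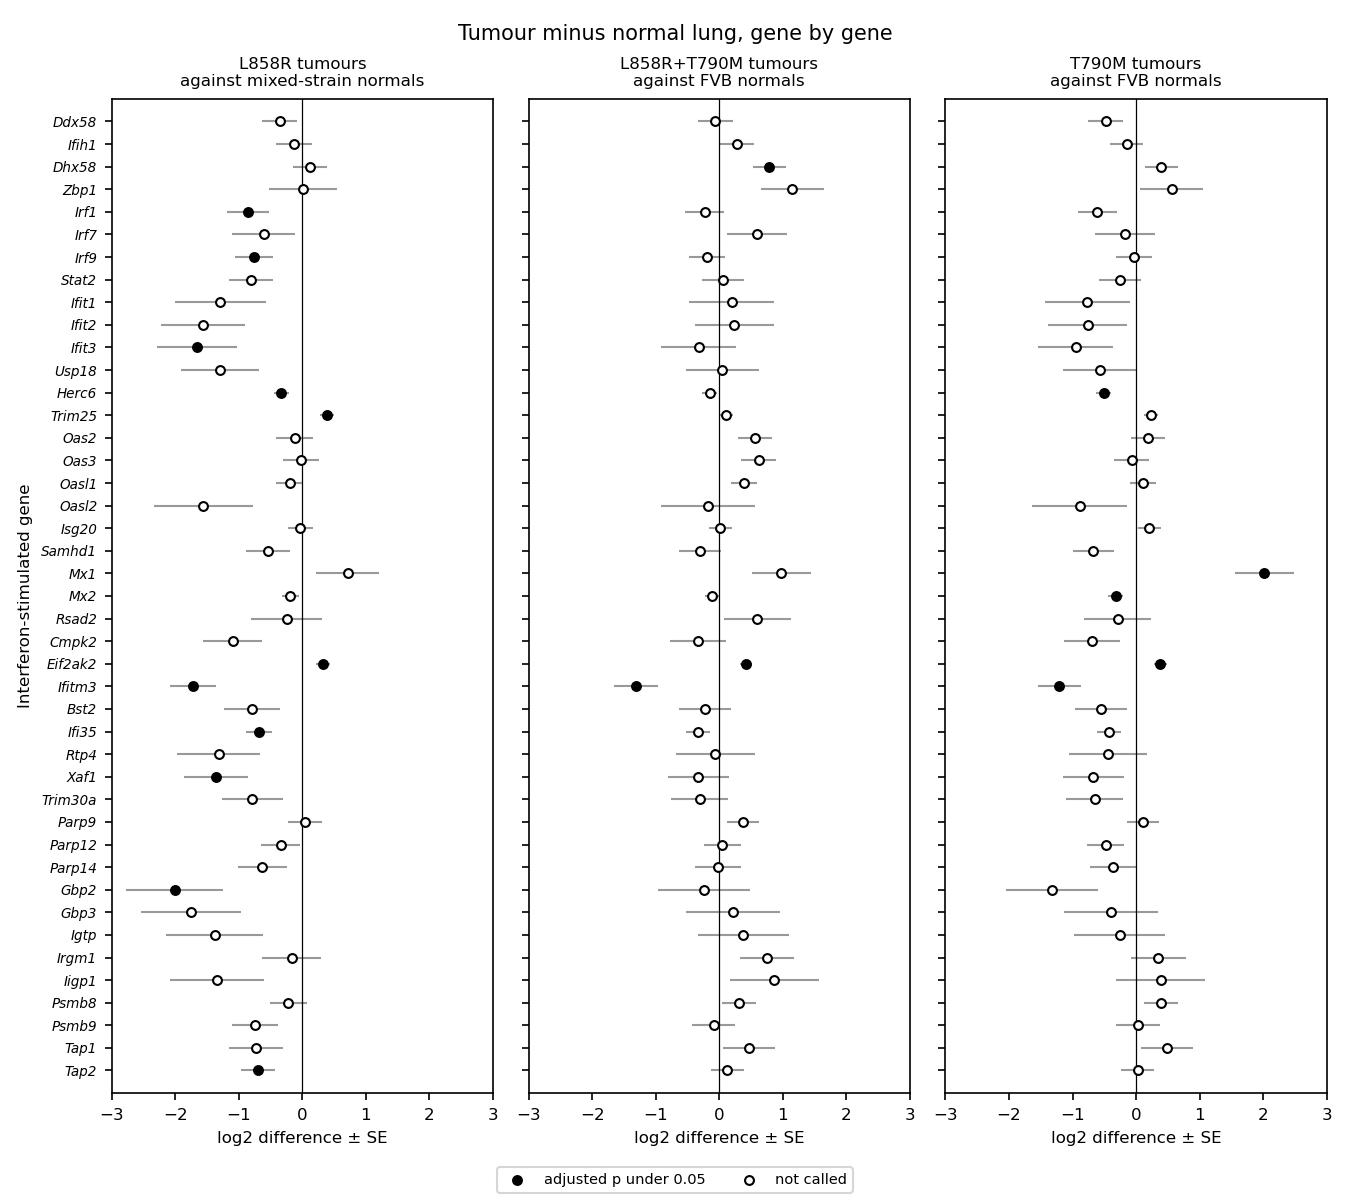
Log2 difference from same-strain normals for each of the 43 genes in the 3 tumour groups, with standard errors as lines and filled points for adjusted p under 0.05. Most L858R points lie left of 0 with a median of -0.68, and the called points include Eif2ak2 above 0 and Ifitm3 below 0 in all 3 groups.

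Of the 4 sensor genes, Dhx58 was called higher in L858R+T790M tumours, and there was no other call in the 3 comparisons with normal lung. Ifih1 (probe set 1426276_at), which encodes the double-stranded RNA sensor MDA5, had log2 signals of 9.52, 9.34, 9.24 and 9.07 in L858R tumours, against 9.33, 9.51, 9.30, 9.69 and 9.27 in mixed-strain normals. It had 9.89, 8.76, 9.01, 9.30 and 10.80 in L858R+T790M tumours and 9.77, 9.01, 9.14, 8.50 and 9.18 in T790M tumours, against 9.31, 9.25, 9.29, 9.23 and 9.26 in FVB normals. The L858R tumours overlapped their normals, while L858R+T790M replicates 1 and 5 and T790M replicate 1 lay above all FVB normals and the other T790M tumours lay below all of them. It was called in no comparison. Dhx58 (probe set 1451426_at), which encodes LGP2, a relative of MDA5 that modulates RNA sensing, stood at 7.63, 7.61, 7.07 and 7.22 in L858R tumours, against 7.24, 7.16, 7.37, 7.37 and 7.19 in mixed-strain normals. It stood at 8.18, 7.43, 7.32, 7.80 and 9.11 in L858R+T790M tumours and 8.45, 7.38, 7.24, 7.23 and 7.61 in T790M tumours, against 6.96, 7.32, 7.19, 7.15 and 7.27 in FVB normals. Replicates 5 and 1 were the highest L858R+T790M tumours, and the group was higher than FVB normals by 0.79 ± 0.26 (SE, adjusted p = 0.0186). The difference was 0.50 (adjusted p = 0.0579) without L858R+T790M replicate 5, and 2 dimmer probe sets of Dhx58 gave -0.05 and 0.36. Taking the median of its 3 probe sets gave 0.03 (adjusted p = 0.872), and in a fit to only the groups compared 0.79 (adjusted p = 0.0522). Zbp1 (probe set 1429947_a_at), a sensor of Z-form nucleic acid, had 7.60, 7.59, 7.19 and 7.65 in L858R tumours, against 6.83, 7.63, 7.82, 7.82 and 7.38 in mixed-strain normals. Its signals were 9.48, 7.30, 7.68, 8.13 and 10.95 in L858R+T790M tumours and 9.56, 7.14, 7.79, 7.68 and 8.40 in T790M tumours, against 7.21, 7.37, 7.75, 7.39 and 8.06 in FVB normals. All L858R tumours lay within the range of their normals, and 5 tumours (L858R+T790M replicates 1, 4 and 5 and T790M replicates 1 and 5) lay above all FVB normals. The difference of L858R+T790M tumours was 1.15 ± 0.50 (SE, adjusted p = 0.0796). Ddx58, which encodes the RNA sensor RIG-I, ranged from 8.61 in T790M replicate 4 to 10.71 in L858R+T790M replicate 5 and was called in no comparison.

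All 4 transcription factor genes had lower means in L858R tumours than in mixed-strain normals, and 2 of the 4 were called. Irf1, an interferon-gamma-induced activator, was 10.43 to 10.85 in L858R tumours, against 11.18 to 11.77 in mixed-strain normals, a difference of -0.86 ± 0.33 (SE, adjusted p = 0.0395). Irf9, the DNA-binding subunit of ISGF3, differed by -0.76 ± 0.30 (SE, adjusted p = 0.0454), and L858R replicate 1 at 9.38 lay within the normals. T790M replicate 1 had the highest Irf9 of all arrays, 10.21. Irf7 (probe set 1417244_a_at), which amplifies type I interferon production, had 7.85, 7.53, 7.35 and 7.86 in L858R tumours, against 7.86, 8.29, 8.44, 8.50 and 8.21 in mixed-strain normals. It had 9.20, 7.76, 8.02, 7.85 and 11.24 in L858R+T790M tumours and 9.48, 7.52, 7.59, 7.63 and 8.08 in T790M tumours, against 8.07, 8.35, 8.14, 8.12 and 8.45 in FVB normals. L858R+T790M replicates 1 and 5 and T790M replicate 1 lay above all FVB normals, and every other tumour of the FVB strain lay below all of them apart from T790M replicate 5. The differences were 0.59 ± 0.47 (SE, adjusted p = 0.362) in L858R+T790M and -0.17 ± 0.47 (SE, adjusted p = 0.811) in T790M tumours. Stat2 (probe set 1450403_at), the ISGF3 subunit with the activation domain, had 7.68, 7.18, 7.21 and 7.24 in L858R tumours, against 7.87, 8.08, 8.19, 8.55 and 8.02 in mixed-strain normals. Its signals were 8.11, 7.22, 7.56, 7.52 and 9.38 in L858R+T790M tumours and 8.80, 7.03, 7.80, 6.93 and 7.69 in T790M tumours, against 7.76, 7.83, 8.23, 7.84 and 7.85 in FVB normals. All 4 L858R tumours lay below all 5 of their normals, with a difference of -0.81 ± 0.35 (SE, adjusted p = 0.0651) that missed the threshold in the fit to all 24 arrays. L858R+T790M replicate 5 and T790M replicate 1 lay above all FVB normals, and L858R+T790M replicate 1 lay among them.

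IFIT proteins, which bind foreign RNA and block its translation, had some of the widest ranges. The 3 genes lie side by side on chromosome 19, and probes for Ifit3 may also read its near-identical neighbour Ifit3b. Ifit1 (probe set 1450783_at) had 9.03, 7.05, 7.64 and 7.66 in L858R tumours, against 8.64, 9.26, 9.27, 9.39 and 9.10 in mixed-strain normals. It had 9.84, 7.01, 8.17, 8.85 and 12.37 in L858R+T790M tumours and 10.16, 7.04, 8.27, 7.64 and 8.26 in T790M tumours, against 9.34, 8.98, 9.20, 8.88 and 8.84 in FVB normals. L858R replicate 1 lay within the range of the mixed-strain normals and the other 3 L858R tumours lay below all of them, and the difference was -1.29 ± 0.71 (SE, adjusted p = 0.158). Replicates 1 and 5 of L858R+T790M and replicate 1 of T790M lay above all FVB normals, and 6 of the other 7 tumours lay below all of them. Ifit2 (probe set 1418293_at) stood at 7.74, 6.53, 7.07 and 7.16 in L858R tumours, against 8.93, 8.66, 8.37, 8.85 and 8.66 in mixed-strain normals. It stood at 8.61, 6.27, 7.26, 7.59 and 11.88 in L858R+T790M tumours and 8.32, 7.43, 6.99, 6.86 and 7.01 in T790M tumours, against 8.05, 8.22, 8.29, 7.82 and 8.05 in FVB normals. All 4 L858R tumours lay below all of their normals, but the difference of -1.57 ± 0.66 (SE, adjusted p = 0.0622) missed the threshold in the fit to all 24 arrays. The 3 high tumours lay above all FVB normals and the other 7 below all of them. The difference of L858R+T790M tumours was 0.24 ± 0.62 (SE, adjusted p = 0.812). Without replicates 1 and 5 it was -1.05. Those arrays were left out for their high interferon values, so -1.05 only describes the other L858R+T790M tumours. Ifit3 (probe set 1449025_at), whose promoter stretch holds 2 response element cores, had 9.04, 7.71, 8.38 and 8.35 in L858R tumours, against 9.72, 10.35, 9.86, 10.19 and 10.03 in mixed-strain normals. Its signals were 9.46, 6.85, 8.59, 8.47 and 11.65 in L858R+T790M tumours and 9.77, 7.39, 8.88, 7.06 and 8.77 in T790M tumours, against 9.32, 9.41, 9.76, 8.90 and 9.22 in FVB normals. It fell in L858R tumours, with a log2 difference of -1.66 ± 0.63 (SE, adjusted p = 0.0378), with no overlap. In T790M replicate 1 it was barely above the highest FVB normal, and in L858R+T790M replicate 1 it lay among the normals.

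ISG15 is a ubiquitin-like protein that is attached to other proteins after interferon. Usp18 (probe set 1418191_at), which removes ISG15 and restrains the type I receptor, had 8.27, 7.24, 7.04 and 7.15 in L858R tumours, against 8.34, 8.67, 8.79, 9.01 and 8.84 in mixed-strain normals. It had 9.38, 6.63, 7.95, 8.0 and 11.13 in L858R+T790M tumours and 9.75, 7.80, 7.56, 6.73 and 8.18 in T790M tumours, against 8.62, 8.37, 8.73, 8.42 and 8.72 in FVB normals. The L858R tumours lay below all of their normals with a difference of -1.30 ± 0.61 (SE, adjusted p = 0.0927), and in the FVB strain 3 tumours lay above and 7 below all normals. Herc6 (probe set 1431095_a_at), the main ISG15 ligase of the mouse, stood at 8.25, 8.24, 8.16 and 8.53 in L858R tumours, against 8.48, 8.69, 8.64, 8.69 and 8.62 in mixed-strain normals. It stood at 8.54, 8.28, 8.25, 8.19 and 8.97 in L858R+T790M tumours and 8.19, 8.20, 7.96, 7.96 and 8.15 in T790M tumours, against 8.57, 8.64, 8.50, 8.80 and 8.48 in FVB normals. It fell in L858R tumours, with a log2 difference of -0.33 ± 0.12 (SE, adjusted p = 0.0365), although replicate 4 lay among the normals, and in T790M tumours, where it was -0.51 ± 0.12 (SE, adjusted p = 0.00142) with no overlap. T790M replicate 1 lay below all FVB normals here. The other 3 probe sets of Herc6 gave -0.75 to -0.30 in L858R and -0.58 to -0.32 in T790M tumours. They also put L858R+T790M replicate 5 at 1.68 to 2.04 above the FVB mean, where the probe set used gave 0.37. The L858R call was lost after further centring (-0.27, adjusted p = 0.0745) or a further quantile normalization (-0.28, adjusted p = 0.0616). With the median over all probe sets the L858R difference was -0.67 (adjusted p = 0.159) and the T790M difference -0.53 (adjusted p = 0.25). Trim25 (probe set 1419879_s_at), a ubiquitin ligase that acts on RIG-I and can also attach ISG15, had 11.36, 11.26, 11.19 and 11.12 in L858R tumours, against 10.83, 10.72, 10.91, 10.94 and 10.87 in mixed-strain normals. Its signals were 11.09, 11.12, 11.16, 11.08 and 11.51 in L858R+T790M tumours and 11.79, 11.05, 11.17, 11.35 and 11.25 in T790M tumours, against 11.00, 11.14, 11.02, 11.13 and 11.16 in FVB normals. It rose in L858R tumours, by 0.38 ± 0.11 (SE, adjusted p = 0.00943), with no overlap, and T790M replicate 1 had the highest value of all arrays. In T790M tumours the difference was 0.23 ± 0.11 (SE, adjusted p = 0.087).

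Oligoadenylate synthetases sense double-stranded RNA and activate RNase L. The group also holds synthetase-like relatives, an exonuclease and an enzyme that hydrolyses deoxynucleotides. None of the 6 genes was called by limma in the 3 comparisons with normal lung, and at an unadjusted p under 0.05 there was 1, Oas3 in L858R+T790M tumours. Oasl2 (probe set 1453196_a_at), an oligoadenylate synthetase-like protein, had 8.25, 6.98, 7.03 and 7.02 in L858R tumours, against 8.39, 8.88, 9.12, 9.26 and 8.77 in mixed-strain normals. It had 9.56, 5.89, 7.70, 8.05 and 11.22 in L858R+T790M tumours and 10.39, 6.18, 7.63, 6.42 and 8.26 in T790M tumours, against 8.71, 8.68, 8.64, 8.47 and 8.84 in FVB normals. The L858R tumours lay below all of their normals with a difference of -1.56 ± 0.78 (SE, adjusted p = 0.115). The 3 high tumours lay above all FVB normals, and the other 7 lay below all of them, with 5.89 in L858R+T790M replicate 2 the lowest. Samhd1 (probe set 1418131_at), which hydrolyses deoxynucleotides, stood at 10.39, 9.79, 9.91 and 10.01 in L858R tumours, against 10.37, 10.49, 10.54, 10.72 and 10.71 in mixed-strain normals. It stood at 10.47, 9.0, 10.18, 9.98 and 11.72 in L858R+T790M tumours and 10.71, 9.15, 9.87, 9.76 and 10.01 in T790M tumours, against 10.21, 10.72, 10.86, 10.28 and 10.77 in FVB normals. L858R+T790M replicate 5 alone lay above the FVB normals, L858R+T790M replicate 1 and T790M replicate 1 lay among them, and every other FVB-strain tumour lay below them. Oas3 was 8.46 and 9.19 in L858R+T790M replicates 1 and 5, against 6.99 to 7.47 in every other array, T790M replicate 1 included. Oasl1 was 7.80 and 8.78 in the same L858R+T790M tumours, and its highest T790M tumour was replicate 2 with 7.94. Oas2 reached 8.93 and 9.48 in those L858R+T790M tumours and 9.15 in T790M replicate 1. Isg20, an exonuclease, was highest in T790M replicate 1 with 10.73.

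Of the 7 Mx, PKR and membrane effector genes, Eif2ak2 rose and Ifitm3 fell in all 3 tumour groups, and in T790M tumours Mx1 rose and Mx2 fell as well. Mx1 (probe set 1451905_a_at), an antiviral GTPase that many inbred mouse strains carry in a defective form, had 5.59, 6.65, 6.38 and 7.56 in L858R tumours, against 5.22, 5.63, 6.10, 6.22 and 6.01 in mixed-strain normals. It had 6.70, 6.62, 5.95, 6.27 and 9.29 in L858R+T790M tumours and 8.41, 6.77, 8.12, 8.70 and 8.0 in T790M tumours, against 5.82, 5.78, 5.91, 6.22 and 6.19 in FVB normals. All 5 T790M tumours lay above all 5 FVB normals, with a difference of 2.02 ± 0.47 (SE, adjusted p = 0.00172), a 4.04-fold rise. Mx1 had 1 probe set and was among the 6066 dimmest of the 18193 genes tested. T790M replicate 4, not replicate 1, was the highest of its group, and L858R+T790M replicate 5 was the highest of all arrays. The difference of L858R+T790M from T790M tumours was -1.03 ± 0.47 (SE, adjusted p = 0.265). Mx2 (probe set 1419676_at), the neighbouring relative on chromosome 16, stood at 7.32, 7.10, 7.12 and 7.11 in L858R tumours, against 7.41, 7.33, 7.43, 7.32 and 7.25 in mixed-strain normals. It stood at 7.40, 7.28, 7.20, 7.33 and 8.14 in L858R+T790M tumours and 7.35, 7.04, 7.23, 7.34 and 7.32 in T790M tumours, against 7.62, 7.59, 7.54, 7.56 and 7.58 in FVB normals. It fell in T790M tumours, with a log2 difference of -0.32 ± 0.12 (SE, adjusted p = 0.0367), with no overlap, and L858R+T790M replicate 5 was above every other array. That call was lost without T790M replicate 2 or 3 or without any 1 FVB normal (adjusted p = 0.052 to 0.099) and after a further quantile normalization (-0.26, adjusted p = 0.077).

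Rsad2 (probe set 1436058_at), which encodes viperin, had 8.29, 7.79, 7.67 and 8.18 in L858R tumours, against 8.24, 8.02, 8.17, 8.56 and 8.18 in mixed-strain normals. It had 9.55, 7.99, 8.23, 8.13 and 12.31 in L858R+T790M tumours and 9.33, 7.94, 8.04, 8.08 and 8.33 in T790M tumours, against 8.77, 8.47, 8.81, 8.84 and 8.30 in FVB normals. L858R tumours overlapped their normals, and L858R+T790M replicate 5 stood far above every normal lung. L858R+T790M replicate 1 and T790M replicate 1 also lay above all FVB normals, and 6 of the other 7 tumours lay below them. Cmpk2, the mitochondrial nucleotide kinase beside Rsad2 on chromosome 12, was 6.85 to 7.72 in L858R tumours, against 8.12 to 8.46 in mixed-strain normals, a difference of -1.10 ± 0.47 (SE, adjusted p = 0.0652). Eif2ak2 (probe set 1422006_at), which encodes the RNA-activated kinase PKR, stood at 8.20, 8.06, 8.28 and 8.05 in L858R tumours, against 7.80, 7.76, 7.86, 7.80 and 7.86 in mixed-strain normals. It stood at 8.33, 8.11, 8.14, 8.46 and 8.79 in L858R+T790M tumours and 8.59, 8.31, 8.29, 8.38 and 8.10 in T790M tumours, against 7.97, 7.92, 8.02, 7.85 and 7.99 in FVB normals. Every tumour lay above every normal lung of its strain, and it rose by 0.33 ± 0.11 (SE, adjusted p = 0.0182) in L858R, 0.42 ± 0.10 (SE, adjusted p = 0.00288) in L858R+T790M and 0.38 ± 0.10 (SE, adjusted p = 0.00488) in T790M tumours. The L858R call was lost without L858R replicate 3 (0.29, adjusted p = 0.0634), and the other 2 probe sets gave larger rises, 0.55 and 0.82 in L858R, 0.98 and 0.92 in L858R+T790M and 0.75 and 0.91 in T790M tumours.

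Ifitm3 (probe set 1423754_at), a membrane protein that blocks entry of viruses, had 12.08, 11.90, 11.83 and 11.72 in L858R tumours, against 13.44, 13.60, 13.75, 13.62 and 13.59 in mixed-strain normals. Its signals were 12.63, 10.83, 12.59, 11.81 and 13.66 in L858R+T790M tumours and 13.32, 11.55, 12.55, 12.14 and 12.49 in T790M tumours, against 13.52, 13.68, 13.59, 13.68 and 13.62 in FVB normals. It fell in all 3 comparisons, with log2 differences of -1.72 ± 0.36 (SE, adjusted p = 0.000583) in L858R, -1.31 ± 0.34 (SE, adjusted p = 0.00409) in L858R+T790M and -1.21 ± 0.34 (SE, adjusted p = 0.00694) in T790M tumours. The exception was L858R+T790M replicate 5, which lay among the FVB normals. Bst2, which encodes tetherin, a tether of budding viruses, was 8.43 to 9.59 in L858R tumours, against 9.20 to 9.90 in mixed-strain normals, and was called in no comparison. Bst2 reached 11.39 in L858R+T790M replicate 5 and 10.57 in T790M replicate 1.

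Rtp4 (probe set 1418580_at), an interferon-induced chaperone of membrane receptors, had 9.64, 8.48, 8.81 and 8.47 in L858R tumours, against 9.62, 10.33, 10.36, 10.54 and 10.02 in mixed-strain normals. It had 10.78, 7.91, 8.82, 9.64 and 12.07 in L858R+T790M tumours and 11.77, 7.91, 9.18, 8.76 and 9.70 in T790M tumours, against 9.89, 9.72, 10.10, 9.91 and 9.89 in FVB normals. L858R replicate 1 lay within the normals and the other 3 below them, and in the FVB strain 3 tumours lay above and 7 below all normals. The L858R difference was -1.32 ± 0.65 (SE, adjusted p = 0.111). Xaf1 (probe set 1443698_at), a partner of apoptosis inhibitors, stood at 8.85, 7.96, 8.37 and 8.52 in L858R tumours, against 9.32, 9.87, 9.92, 9.96 and 9.85 in mixed-strain normals. It stood at 9.49, 7.54, 8.43, 8.65 and 11.19 in L858R+T790M tumours and 10.43, 7.97, 8.52, 8.02 and 8.70 in T790M tumours, against 9.32, 9.32, 9.67, 9.44 and 9.22 in FVB normals. It fell in L858R tumours, with a log2 difference of -1.36 ± 0.51 (SE, adjusted p = 0.0364), with no overlap. Ifi35 fell as well, with 10.79 to 10.96 in L858R tumours, against 11.39 to 11.67 in mixed-strain normals (-0.68 ± 0.20 (SE, adjusted p = 0.0102)). Trim30a, a mouse TRIM-family ubiquitin ligase with close relatives that its probes may also read, was 8.03 to 9.18 in L858R tumours, against 8.98 to 9.47 in mixed-strain normals, and was not called.

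None of the 3 PARP family genes, which encode ADP-ribosyltransferases, was called by limma in a comparison with normal lung, also at an unadjusted p under 0.05 (0 of 3 in each). Parp14 (probe set 1451564_at) had 9.45, 8.76, 9.09 and 8.98 in L858R tumours, against 9.42, 9.70, 9.68, 10.01 and 9.68 in mixed-strain normals. It had 10.15, 8.65, 9.20, 9.15 and 11.25 in L858R+T790M tumours and 10.48, 8.76, 9.30, 8.63 and 9.51 in T790M tumours, against 9.60, 9.63, 9.71, 9.74 and 9.80 in FVB normals. L858R replicate 1 lay within the normals, the 3 high FVB-strain tumours lay above all FVB normals, and the other 7 lay below all of them. Parp12 (probe set 1426774_at) stood at 10.97, 10.55, 10.81 and 10.57 in L858R tumours, against 11.01, 10.91, 11.12, 11.18 and 11.10 in mixed-strain normals. It stood at 11.19, 10.01, 10.58, 10.79 and 12.18 in L858R+T790M tumours and 11.24, 9.76, 10.64, 9.72 and 10.72 in T790M tumours, against 10.81, 10.94, 11.02, 10.79 and 10.92 in FVB normals. The same 3 tumours lay above all FVB normals, and the L858R difference was -0.34 ± 0.31 (SE, adjusted p = 0.405). Parp9 was 9.36 to 9.65 in L858R tumours, against 9.22 to 9.71 in mixed-strain normals, with a difference of 0.04 ± 0.27 (SE, adjusted p = 0.928).

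Guanylate-binding proteins and immunity-related GTPases attack vacuoles of intracellular microbes, and their genes are among the most strongly induced by interferon gamma in mice. Probes of these families can also read close relatives. Gbp2 (probe set 1435906_x_at) had 9.42, 8.84, 8.80 and 9.25 in L858R tumours, against 10.47, 11.31, 11.20, 11.74 and 10.73 in mixed-strain normals. It had 12.13, 8.30, 9.48, 9.94 and 13.45 in L858R+T790M tumours and 11.93, 7.98, 9.65, 8.75 and 9.60 in T790M tumours, against 10.79, 10.72, 11.35, 10.54 and 11.10 in FVB normals. It fell in L858R tumours, with a log2 difference of -2.01 ± 0.76 (SE, adjusted p = 0.0381), a 4.03-fold drop with no overlap. The 3 high FVB-strain tumours lay above all FVB normals, and the other 7 lay below all of them. Gbp3 (probe set 1418392_a_at), its neighbour on chromosome 3, stood at 8.73, 8.54, 7.53 and 7.69 in L858R tumours, against 8.60, 10.91, 9.75, 11.00 and 9.08 in mixed-strain normals. It stood at 10.34, 7.34, 8.08, 8.54 and 12.16 in L858R+T790M tumours and 10.99, 7.15, 8.45, 8.18 and 8.64 in T790M tumours, against 8.65, 8.79, 9.77, 8.80 and 9.38 in FVB normals. The mixed-strain normals spread widely, L858R replicate 1 lay among them, and the difference was -1.75 ± 0.79 (SE, adjusted p = 0.0803). In the FVB strain, 3 tumours lay above and 7 below all normals.

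Igtp (probe set 1417141_at), an immunity-related GTPase whose promoter stretch holds both motifs, had 9.29, 8.94, 8.99 and 9.20 in L858R tumours, against 9.46, 10.98, 10.39, 11.86 and 9.72 in mixed-strain normals. Its signals were 11.63, 8.77, 9.16, 9.42 and 13.16 in L858R+T790M tumours and 12.22, 8.60, 9.24, 9.33 and 9.54 in T790M tumours, against 9.55, 9.81, 11.07, 9.50 and 10.32 in FVB normals. The L858R tumours lay below all of their normals, which ranged over more than 2 log2 units, and the difference was -1.38 ± 0.76 (SE, adjusted p = 0.155). Iigp1 (probe set 1419043_a_at), another member of the family, had 8.68, 8.82, 8.97 and 9.08 in L858R tumours, against 8.84, 10.44, 10.70, 11.08 and 10.10 in mixed-strain normals. It had 11.88, 8.68, 9.57, 9.22 and 13.36 in L858R+T790M tumours and 12.07, 8.72, 9.45, 10.14 and 9.95 in T790M tumours, against 9.02, 10.05, 10.38, 9.07 and 9.84 in FVB normals. Mixed-strain normal 1 lay among the L858R tumours, and the other 4 normals lay well above them. The 3 high FVB-strain tumours lay above all FVB normals, but only L858R+T790M replicate 2 and T790M replicate 2 lay below all of them. Irgm1, which restrains the other GTPases of the family, was 9.35 to 9.48 in L858R tumours, against 9.0 to 10.18 in mixed-strain normals, and was called in no comparison. Over the 5 GTPases, the mean was 12.81 in L858R+T790M replicate 5, 11.60 in T790M replicate 1 and 11.27 in L858R+T790M replicate 1, and 8.22 to 9.45 in the other tumours, against 9.27 to 11.17 in mixed-strain and 9.38 to 10.45 in FVB normals.

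Psmb8 and Psmb9, subunits of the immunoproteasome, and Tap1 and Tap2, the pump that carries peptides to MHC class I, lie together on chromosome 17. Tap1 (probe set 1416016_at) had 8.44, 8.90, 8.63 and 8.64 in L858R tumours, against 8.72, 9.66, 9.59, 9.90 and 9.04 in mixed-strain normals. It had 9.94, 8.60, 8.95, 8.79 and 11.15 in L858R+T790M tumours and 10.80, 8.83, 9.10, 9.42 and 9.33 in T790M tumours, against 8.56, 8.77, 9.48, 8.67 and 9.58 in FVB normals. L858R replicate 2 lay within the normals and the other 3 lay below them, while the 7 FVB-strain tumours outside the 3 high ones all lay within the range of the FVB normals. Psmb9 (probe set 1450696_at) stood at 9.82, 9.86, 9.61 and 9.74 in L858R tumours, against 9.80, 10.59, 10.49, 11.29 and 10.37 in mixed-strain normals. It stood at 10.69, 9.39, 9.91, 9.87 and 11.57 in L858R+T790M tumours and 11.42, 9.87, 10.07, 10.39 and 10.30 in T790M tumours, against 9.92, 10.14, 10.78, 10.23 and 10.82 in FVB normals. L858R+T790M replicate 5 and T790M replicate 1 lay above all FVB normals, and the L858R difference was -0.75 ± 0.36 (SE, adjusted p = 0.101). Tap2 fell in L858R tumours, with 9.04 to 9.15, against 9.40 to 10.37 in mixed-strain normals (-0.70 ± 0.27 (SE, adjusted p = 0.044)). Psmb8 differed by -0.22 ± 0.29 (SE, adjusted p = 0.567) in L858R and 0.39 ± 0.27 (SE, adjusted p = 0.274) in T790M tumours. The mean of the 4 genes was above all matching normals in 3 tumours, below all of them in 3 and between them in 8.

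Between the tumour groups, no interferon-stimulated gene passed the threshold. L858R+T790M tumours differed from T790M tumours by a median of 0.37 over the 43 genes, against 0.01 over all genes, and limma called 0 genes (1.59% of all genes), with 3 at an unadjusted p under 0.05. Those 3 were Herc6 (0.35 ± 0.12 (SE, adjusted p = 0.121)), Oas3 (0.68 ± 0.27 (SE, adjusted p = 0.185)) and Mx1 (-1.03 ± 0.47 (SE, adjusted p = 0.265)). L858R tumours minus their normals were also set against each of the other groups minus its own normals. Against L858R+T790M tumours 0 of the 43 genes were called (0.0715% of all genes) and 2 had an unadjusted p under 0.05, Iigp1 with -2.21 ± 1.02 and Tap2 with -0.83 ± 0.38 (SE). The median was -0.66, and 42 of the 43 values were below 0. L858R+T790M replicates 1 and 5 were both above the other 3 of their group for 41 of the 43 genes. All 43 values rest on the same arrays, so 42 is not a count of separate results. Against T790M tumours 0 were called (0.418% of all genes), 0 had an unadjusted p under 0.05, and the median was -0.45. A difference that missed the threshold is not shown to be absent.

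Mixed-strain normals differed from FVB normals by a median of 0.09 over the 43 genes, against -0.02 over all genes. None of the 43 was called (1.04% of all genes), and 1, Trim25, had an unadjusted p under 0.05. Mixed-strain normal 4 was the highest of its set for 29 genes, and FVB normal 3 was the highest of its set for 16. Mixed-strain normal 1 had the lowest member mean of the 10 normals, 9.03.

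Across the 24 arrays, each less its group mean, the 43 genes correlated with their own mean by an r of 0.62 to 0.98, with a median of 0.93 and 36 genes over 0.80. Without L858R+T790M replicate 5 and T790M replicate 1, the arrays farthest from the median, r ran from 0.35 to 0.97 with a median of 0.85, and 26 genes were over 0.80. Outside the list, the genes most like the member mean over 24 arrays were Gbp7 (r = 0.971), Tapbp (0.96), Psmb10 (0.959), Gbp6 (0.954), Ube2l6 (0.949), Znfx1 (0.946), Ddx60 (0.945), Dtx3l (0.944), Irgm2 (0.942) and Ifi47 (0.941). Over the 22 arrays left after those 2 were taken out, r was 0.939 for Gbp7, 0.919 for Tapbp and 0.936 for Psmb10, and lowest for Ifi47 with 0.872. The points of such a correlation share an array, a piece of tissue and its scaling, and a gene's r with a mean that contains it is raised by that.

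The interferon genes themselves had low signals, with a mean over 6 genes of 5.50 to 6.16 in tumours, against 5.63 to 5.94 in normal lungs. Ifng, the interferon gamma gene, was 7.13 in L858R+T790M replicate 5 and 5.05 in replicate 1, and 3.95 to 4.67 in every other array. T790M replicate 1 had 4.42. Ifnb1, Ifna1 and Ifna4 were not called in any comparison with normal lung. Ifna2 was lower in all 3, with differences of -0.54 ± 0.12, -0.56 ± 0.11 and -0.50 ± 0.11 in L858R, L858R+T790M and T790M tumours (SE, adjusted p = 0.000742, 0.000326 and 0.000872), and its probes may read other genes of the alpha family. Of the 6 interferon genes, 0 rose in any of the 3 comparisons, 1 fell in L858R and in L858R+T790M tumours, and 2 fell in T790M tumours. For this and the other pathway and marker lists, the share of all genes called higher was 23.3%, 20.2% and 21.9% in L858R, L858R+T790M and T790M tumours, and the share called lower 18.1%, 16.1% and 17.9%.

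Of the 6 receptor genes, 2 rose and 2 fell in L858R tumours, 3 rose and 1 fell in L858R+T790M tumours, and 1 rose and 1 fell in T790M tumours. Between 16.1% and 23.3% of all genes were called in each direction, so several of these counts are near what all genes show. Ifnar1 and Il10rb in L858R tumours and Ifnlr1 in L858R+T790M tumours lost their calls when single arrays were left out. Their limma adjusted p reached 0.101, 0.0667 and 0.115. Ifngr1, the ligand-binding chain for interferon gamma, fell in all 3, with differences of -0.66 ± 0.15, -0.80 ± 0.14 and -0.75 ± 0.14 in the same order of tumour groups (SE, adjusted p = 0.00143, 0.000147 and 0.000277). Of the 12 signalling genes, 1 rose and 2 fell in L858R, 4 rose and 1 fell in L858R+T790M, and 1 rose and 1 fell in T790M tumours. Calls of Irf8 in L858R tumours and Stat3 in L858R+T790M tumours were lost when single arrays were left out. Their limma adjusted p reached 0.1 and 0.131. Jak1, the kinase shared by the type I and type II receptors, fell in all 3 (-0.77 ± 0.18, -0.63 ± 0.17 and -0.90 ± 0.17, adjusted p = 0.00187, 0.0062 and 0.00026). Ptpn2, a phosphatase that turns JAK and STAT signals off, rose in all 3 (1.04 ± 0.11, 0.91 ± 0.10 and 0.84 ± 0.10, adjusted p = 3.34e-07, 1.09e-06 and 3.12e-06). Its values were 10.54 to 11.22 in tumours, against 9.81 to 10.12 in normal lungs. Socs1 and Socs3, feedback inhibitors of the receptors, rose in L858R+T790M tumours by 0.81 ± 0.24 and 0.84 ± 0.29 (SE, adjusted p = 0.0115 and 0.0292). Replicate 5 was the highest for both, with 9.23 for Socs1, against 7.19 to 7.75 in the other 4, and 12.10 for Socs3, against 10.00 to 11.35. Without replicate 5 the rise of Socs1 was 0.44 (adjusted p = 0.0011), and Socs3 was no longer called, with 0.55 (adjusted p = 0.1). The Socs3 call was also lost without L858R+T790M replicate 1 or FVB normal 3 or 4 (adjusted p = 0.0781 to 0.0875).

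Of the 14 other sensing genes, 7 rose and 1 fell in L858R, 2 rose and 1 fell in L858R+T790M, and 3 rose and 1 fell in T790M tumours. With 20.2% and 21.9% of all genes called higher in L858R+T790M and T790M tumours, those counts are near or below what all genes show. Calls of Ticam1 and Aim2 in L858R tumours, and of Ticam1 and Mavs in T790M tumours, were lost when single arrays were left out. Their limma adjusted p reached 0.0599, 0.115, 0.123 and 0.068 in that order. Sting1, the adaptor of cytosolic DNA sensing, rose in all 3 (0.72 ± 0.17, 0.65 ± 0.16 and 0.75 ± 0.16, adjusted p = 0.00159, 0.00292 and 0.000727), with 9.06 to 10.08 in tumours, against 8.55 to 9.29 in normal lungs. Ifi204, a DNA-binding interferon-inducible gene, fell in all 3 (-3.10 ± 0.64, -2.37 ± 0.61 and -2.95 ± 0.61, adjusted p = 0.000511, 0.00376 and 0.000513). Of the 8 other MHC class I genes, 1 rose and 2 fell in L858R tumours, and 1 rose and 0 fell in each of the other groups. Psme1, a proteasome activator subunit, was the gene that rose in each. Nlrc5, an activator of class I genes, and Psmb10, an immunoproteasome subunit, fell in L858R tumours, with differences of -1.81 ± 0.68 and -0.86 ± 0.28 (SE, adjusted p = 0.0365 and 0.0171). Nlrc5 was no longer called when any 1 of L858R replicates 2 to 4 or of mixed-strain normals 2 to 4 was left out (adjusted p = 0.0573 to 0.09).

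The interferon-induced chemokines set the high tumours apart from each other. Cxcl9, Cxcl10 and Cxcl11, which draw T cells and NK cells through CXCR3, were 12.37, 12.74 and 12.03 in L858R+T790M replicate 5 and 9.62, 9.23 and 9.65 in replicate 1. In T790M replicate 1 they were 7.74, 7.02 and 6.54, although its mean over the 43 genes, 10.17, was above that of L858R+T790M replicate 1, 9.81. The mean over 6 such chemokines was 11.41 and 9.26 in those L858R+T790M tumours, 7.75 in T790M replicate 1 and 6.57 to 7.45 in the other arrays. Of the 6, 0 rose and 1 fell in L858R, 3 rose and 0 fell in L858R+T790M, and 1 rose and 1 fell in T790M tumours. Ccl12, a monocyte attractant, rose by 2.01 ± 0.52 in L858R+T790M tumours and by 1.31 ± 0.52 in T790M tumours (SE, adjusted p = 0.0041 and 0.0496). Without L858R+T790M replicate 5 the first was 1.33 (adjusted p = 0.00424), and the T790M call was lost without any 1 of most arrays, with an adjusted p of up to 0.107. Cxcl11 and Ccl7 also rose in L858R+T790M tumours, by 1.89 and 0.95 (limma adjusted p = 0.0274 and 0.0472). Without replicate 5 the rises were 0.98 and 0.39 (adjusted p = 0.0496 and 0.0467). The Cxcl11 call was lost without L858R+T790M replicate 1 or FVB normal 2 (adjusted p = 0.0831 and 0.0516). That of Ccl7 was lost without any 1 of most arrays, with an adjusted p of up to 0.0924. Ccl5 fell in L858R (-2.50 ± 0.58, adjusted p = 0.00148) and T790M tumours (-1.91 ± 0.55, adjusted p = 0.00803).

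**Figure D4:**
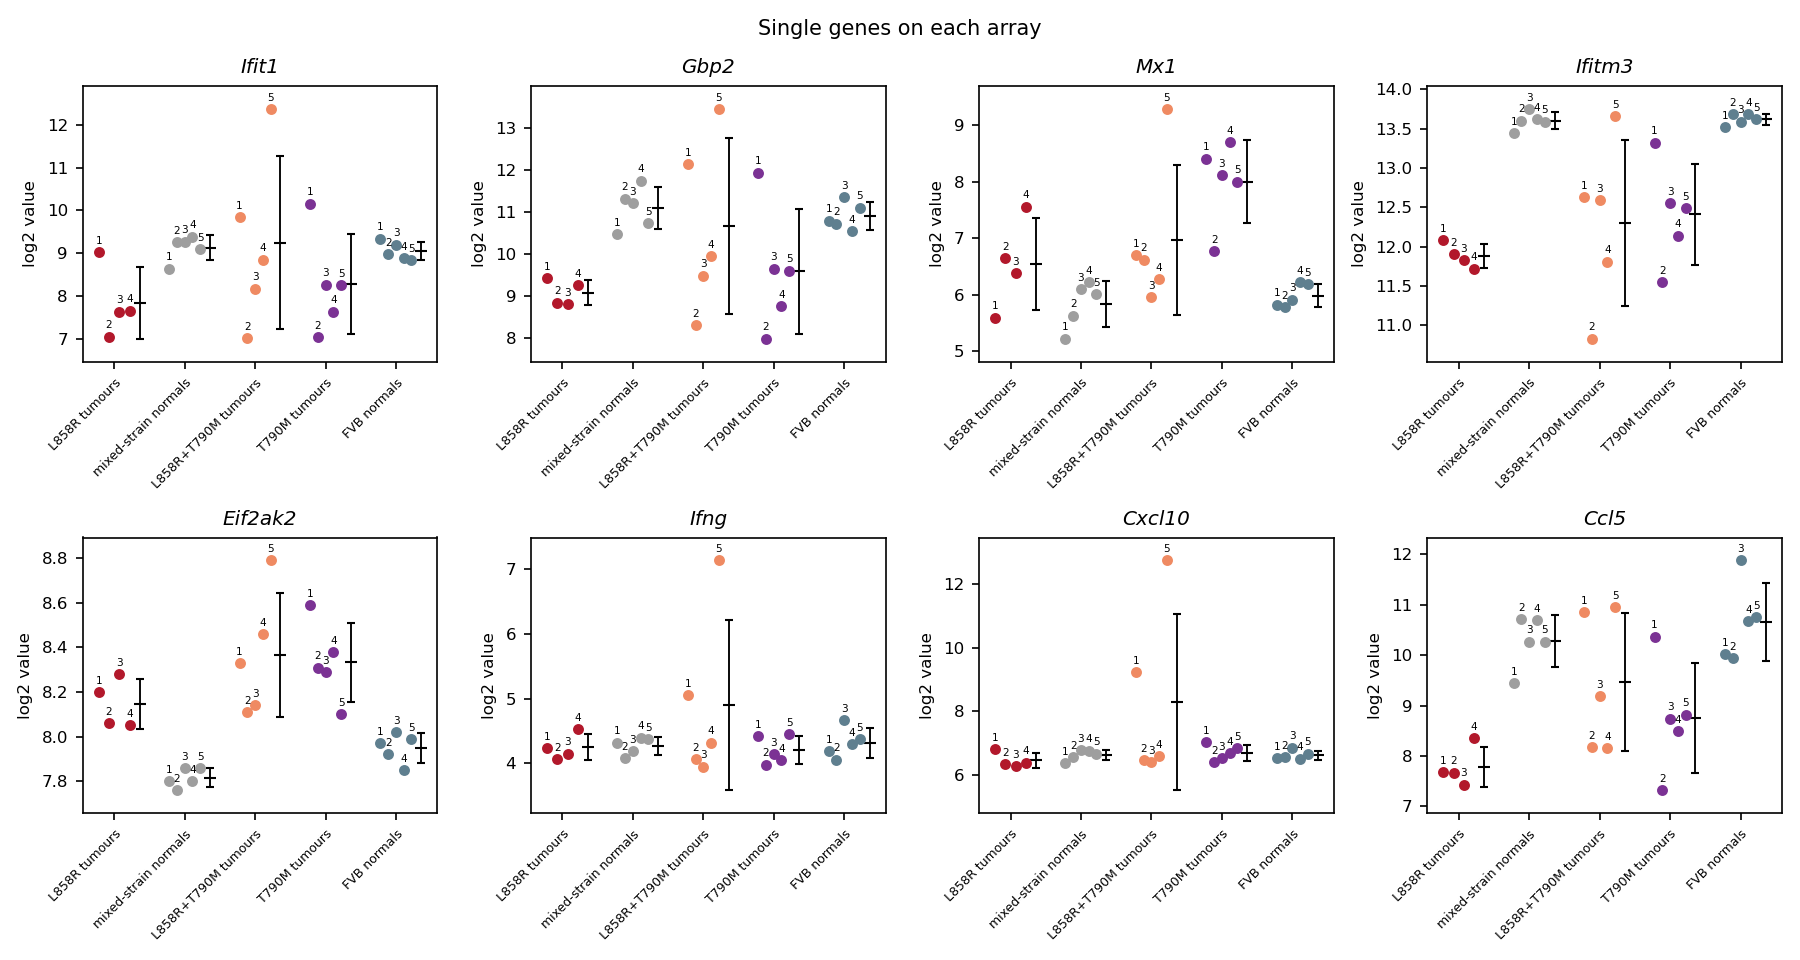
Log2 signal of Ifit1, Gbp2, Mx1, Ifitm3 and Eif2ak2 and of Ifng, Cxcl10 and Ccl5 on each array, with points numbered by replicate and bars for the group mean ± SD, each tumour group left of its normals. Eif2ak2 lies higher in every tumour, Mx1 is higher in all 5 T790M tumours, and Cxcl10 is 12.74 and 9.23 in L858R+T790M replicates 5 and 1 but 7.02 in T790M replicate 1.

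No immune cell marker list had a mean above all FVB normals in each of L858R+T790M replicates 1 and 5 and T790M replicate 1. The monocyte and macrophage mean was above them in L858R+T790M replicates 1 and 5 only. The alveolar macrophage mean was above the normals of the same strain in 11 of the 14 tumours, T790M replicate 1 not among them. Of 7 monocyte and macrophage markers, 1, 1 and 0 rose and 2, 1 and 2 fell in L858R, L858R+T790M and T790M tumours, and their mean was 9.29 to 9.70, 8.80 to 10.48 and 9.02 to 9.85 in these groups, against 9.25 to 9.73 in mixed-strain and 9.34 to 9.87 in FVB normals. The highest values of all arrays were those of L858R+T790M replicates 5 and 1, 10.48 and 10.01, and T790M replicate 1 had 9.85. Of 7 NK cell markers, 5, 6 and 7 fell and 0 rose in the 3 groups, and their mean was 6.55 to 6.62, 6.74 to 7.35 and 6.55 to 8.13, against 7.50 to 8.30 in mixed-strain and 7.90 to 9.22 in FVB normals. T790M replicate 1 had the highest NK cell mean of the tumours. Of 9 T cell markers, 8 fell and 0 rose in each group, and their mean was 6.91 to 7.09, 7.27 to 7.58 and 6.92 to 7.75, against 7.74 to 8.02 in mixed-strain and 7.86 to 8.37 in FVB normals. Of 5 neutrophil markers, 0, 1 and 4 fell and 0 rose in the 3 groups, and their mean was 7.29 to 9.45, 7.65 to 10.44 and 6.89 to 8.65, against 8.17 to 8.95 in mixed-strain and 8.42 to 11.19 in FVB normals. L858R+T790M replicates 1 and 5 had 10.44 and 9.33, the highest of their group, and L858R replicate 1 with 9.45 and T790M replicate 1 with 8.65 were the highest of theirs. Of 6 alveolar macrophage markers, 4, 2 and 1 rose and 0, 1 and 1 fell, and their mean was 10.39 to 11.49, 9.55 to 10.72 and 9.54 to 9.92, against 9.38 to 9.59 in mixed-strain and 9.56 to 9.78 in FVB normals. T790M replicate 1 had the lowest alveolar macrophage mean of the tumours, 9.54. Of 6 dendritic cell markers, 5, 6 and 2 fell and 0 rose, and L858R+T790M replicates 5 and 1 had the lowest means of all arrays, 7.01 and 7.08. Of 8 plasmacytoid dendritic cell markers, 0, 1 and 0 rose and 3, 6 and 5 fell, averaging 7.80 in L858R+T790M replicate 5, 8.11 in replicate 1 and 8.23 in T790M replicate 1, against 8.40 to 8.88 in FVB normals. Of 5 B cell markers, 2 fell and 0 rose in each group, with a mean of 7.64 and 7.89 in L858R+T790M replicates 5 and 1 and 8.77 in T790M replicate 1, against 8.17 to 9.58 in FVB normals. Of 5 fibroblast markers, 4, 2 and 2 fell and 0 rose, and L858R+T790M replicate 5 had the highest mean of the tumours, 11.34. Endothelial markers, 5 of 5 of which fell in each group, were least reduced in T790M replicate 1, whose mean was 11.16. No marker was at 0 on any array, as these log2 signals do not reach it. What part these cells had in the values of the interferon-stimulated genes was not tested.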

How the data were processed

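The deposited values are log2 signals of Affymetrix MOE 430 2.0 arrays, made with RMA, a method that corrects background, equalises the distributions of the arrays and summarises the probes of a set, per the submitters' processing notes, with no version given. Tumour and normal groups came from the array titles and strain labels. Of 45101 probe sets, 64 were controls and 34945 were annotated to 1 gene. Symbols were updated through Entrez identifiers for 34741 probe sets, and the brightest probe set of each gene over the 24 arrays was kept, giving 18193 genes. A linear model with 1 mean for each of the 5 groups was fitted by limma (version 3.58.1, R 4.3.3, eBayes with a trend, 19 residual degrees of freedom), with Benjamini-Hochberg adjustment over all 18193 genes and a threshold of 0.05. L858R tumours were set against the other tumour groups as a difference of differences, each from the normals of its strain, and 7 comparisons were made in all. The fit was tested on simulated data in which each gene had the same spread in all groups and genes varied independently. The 43 genes differ from that in both respects, so the test does not show how the fit behaves for them. No filter on low values was used, so all 43 measured genes entered. Signal per probe set has no read depth, and the number of arrays limits precision. Array values were printed in full for the 12 genes with the widest range over the arrays, the first 2 by range in each role, and every gene called in a comparison with 10 or fewer calls. The members and lists were chosen with earlier results of these data known. Alternatives were further centring or quantile normalization, the median over a gene's probe sets, leaving out the dimmest genes, array weights, no trend, a fit to only the groups compared, a replicate block, stricter thresholds and leaving out arrays. Promoters were 250-base windows before RefSeq starts (GRCm38.p6).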

Additional observations from a re-analysis of the deposited data

Results flagged for a closer look

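There were 220 tests, of each of the 43 genes and of their mean within each of the 5 groups of 4 or 5 arrays. In 18 of them 1 array was set apart from the others by Dixon's rule. For separate tests chance gives about 1 in 20. The genes share arrays and vary together, so these tests are not separate and their count cannot be set against that rate. T790M replicate 1 was the high array for Irf7 (9.48), Irf9 (10.21), Rsad2 (9.33), Cmpk2 (8.98), Parp9 (10.46) and Igtp (12.22). L858R replicate 1 was the high array of its group for Stat2 (7.68), Usp18 (8.27), Oas2 (8.01), Oasl2 (8.25) and Mx2 (7.32), and L858R replicate 3 was the low one for Zbp1 (7.19). L858R+T790M replicate 5 was the high array for Trim25 (11.51), Mx1 (9.29) and Mx2 (8.14). Replicates 1 and 5 of that group both lay above the other 3 for 41 genes. T790M replicate 2 was high for Oasl1 (7.94). Among normal lungs, FVB normal 3 was high for Stat2 (8.23) and mixed-strain normal 1 was low for Xaf1 (9.32).

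For Psmb8, and for no other of the 43 genes, every tumour of 1 group lay on the opposite side of the mean of its normals from every tumour of another. All 4 L858R tumours lay below that mean and all 5 T790M tumours above it, with log2 differences of -0.22 and 0.39. Neither passed the threshold. The strain-adjusted difference between them, -0.61 ± 0.40 (SE, limma adjusted p = 0.497), did not either. Differences of opposite sign were larger for Iigp1 (-1.34 in L858R and 0.39 in T790M tumours) and Tap1 (-0.73 and 0.48), with T790M tumours on both sides of the mean of their normals.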

How the results depend on the processing

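The counts of called genes moved with single arrays. In the fit to all 24 arrays, 18.1%, 16.1% and 17.9% of all genes were called lower in L858R, L858R+T790M and T790M tumours. The shares called higher were 23.3%, 20.2% and 21.9%. Those shares belong to that fit and can differ in other settings. Without each array in turn, genes called lower ranged from 2 to 15 in L858R tumours, 1 to 5 in L858R+T790M tumours, 2 to 9 in T790M tumours and 0 to 1 for L858R+T790M against T790M tumours, and genes called higher ranged from 1 to 2, 1 to 5 and 2 to 3 in the 3 comparisons with normal lung. Genes called higher in L858R+T790M tumours were 5 without replicate 2, 4 without replicate 3 and 1 without replicate 5, and those called lower were 5 without replicate 5. Without L858R+T790M replicates 1 and 5, the counts called lower were 20 in L858R, 12 in L858R+T790M and 9 in T790M tumours, 1 was called higher in L858R+T790M tumours, and Ifit2 turned from 0.24 to -1.05 there. Those arrays were left out because their interferon values were already known to be high, so these counts and the Ifit2 value only describe the remaining arrays. With array weights, 14 were lower in L858R, 6 higher and 2 lower in L858R+T790M, 4 higher and 5 lower in T790M tumours, 1 was lower in L858R+T790M than in T790M tumours, and 2 were lower in mixed-strain than in FVB normals. With a fit to only the groups compared, 28 were lower in L858R tumours, 1 was higher in L858R+T790M tumours, and 2 were higher and 2 lower in mixed-strain normals. The median over probe sets left 1 higher in L858R+T790M tumours. Leaving out the 6066 dimmest genes left 1 higher in T790M tumours, because Mx1 was among the genes left out. At an adjusted p under 0.01, L858R tumours had 1 higher and 1 lower and L858R+T790M tumours 1 higher. With a 2-fold change also asked, L858R tumours had 0 higher and 4 lower, L858R+T790M tumours 0 higher, and T790M tumours 1 higher and 1 lower. The cause of these changes was not tested beyond the fewer arrays or genes of each setting. Leaving out each array for called genes of the pathway lists was added after seeing the data. Further centring, a further quantile normalization and no trend changed none of these counts by over 1.5 times.

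Same-numbered arrays did not deviate together in every pair of any comparison. Correlations ran from -0.28 to 0.00 for L858R tumours and mixed-strain normals, -0.15 to 0.15 for L858R+T790M tumours and FVB normals, -0.11 to 0.21 for T790M tumours and FVB normals, -0.12 to 0.10 for the 2 sets of normals, and 0.00 to 0.44 for L858R+T790M and T790M tumours, where 4 of 5 pairs were over 0.1. The numbers were therefore not taken to pair the samples. With the replicate number as a block, genes called lower in L858R tumours were 5, with Irf1 (-0.76, adjusted p = 0.0514), Irf9 (-0.73, adjusted p = 0.0544), Herc6 (-0.30, adjusted p = 0.0685) and Tap2 (-0.64, adjusted p = 0.083) no longer called, and no other count moved by over 1.5 times.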
